A study of Homo sapiens with 6 samples.

Results

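The cluster of miR-424, miR-503, miR-542 and miR-450 is a group of 6 microRNA hairpins on chromosome X whose products were measured by small RNA sequencing in K562 cells with and without over-expression of RUNX1. The members were the mature arms hsa-miR-424-5p, hsa-miR-424-3p, hsa-miR-503-5p, hsa-miR-542-5p, hsa-miR-542-3p, hsa-miR-450a-5p and hsa-miR-450b-5p, found by name, so that they made up 7 of the 2596 microRNA entries and of the 28846 small RNA entries of each count file. K562 is a human erythroleukemia line that can be driven towards the erythroid or the megakaryocytic lineage, and RUNX1 is a transcription factor of megakaryocytic differentiation. The control cells carried the empty lentiviral vector SIEW, which expresses GFP only, and the RUNX1 cells carried SIEW RUNX1, which expresses human RUNX1 together with GFP. Both groups were the same line, were harvested after 10 days in culture and comprised 3 separately transduced samples each. Each library was made from 1000 ng of total RNA. The vectors act on one leukemic line and deliver RUNX1 on top of what the cells already make, and RUNX1 mRNA itself cannot be read from small RNA libraries, so the transgene could not be checked in these counts.

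A microRNA hairpin is cut into a duplex, and either its 5′ arm (5p) or its 3′ arm (3p) is loaded into an Argonaute protein and guides it to messenger RNAs, mainly through the seed, bases 2 to 8. miR-424-5p and miR-503-5p belong to the extended miR-15/16 family, known for repressing cyclins and other genes of the cell cycle, and miR-424 is known to rise when myeloid precursors mature into monocytes. miR-542-3p is known to repress survivin, an inhibitor of cell death. Because the hairpins of such a cluster lie close together on one strand, they can be cut from one primary transcript, while the level of each mature arm also depends on how well its hairpin is processed and how long the arm lasts.

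On GRCh38 (GENCODE 29) all 6 hairpins lie on the minus strand within 6527 bases, in the order MIR424, MIR503, MIR542, MIR450A2, MIR450A1 and MIR450B in the direction of transcription. MIR424 is at chrX:134546614-134546711 and MIR503 at chrX:134546328-134546398, 215 bases further on. MIR542 follows at chrX:134541341-134541437, after a gap of 4890 bases. MIR450A2 is at chrX:134540508-134540607, MIR450A1 at chrX:134540341-134540431 and MIR450B at chrX:134540185-134540262, with 76 and 78 bases between the last 3. The non-coding gene MIR503HG (chrX:134543337-134546632) starts inside the MIR424 hairpin, so that 19 bases of MIR424 are exonic in 3 of its 5 transcripts. MIR503 lies in an intron of those 3 transcripts, and the other 4 hairpins overlap no annotated gene.

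The mature sequences below are shown because the seeds decide which arms can be read as one family. They are taken from RefSeq (GRCh38.p14), which held 6 of the 7 members. hsa-miR-542-3p is named only. The letters run 5′ to 3′ and the capitals mark the seed.
hsa-miR-424-5p: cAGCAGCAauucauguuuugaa
hsa-miR-424-3p: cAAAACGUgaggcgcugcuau
hsa-miR-503-5p: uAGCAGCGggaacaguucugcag
hsa-miR-542-5p: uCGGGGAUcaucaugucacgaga
hsa-miR-450a-5p: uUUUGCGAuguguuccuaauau
hsa-miR-450b-5p: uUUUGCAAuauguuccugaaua

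Counted from 1 at the 5′ end, the first 8 bases of miR-503-5p differ from those of miR-424-5p by C1U and A8G, so the seeds of the pair differ in their last base. The first 8 bases of miR-450b-5p differ from those of miR-450a-5p by the single change G7A, which lies inside the seed. The seed of miR-424-5p is shared by 6 other mature microRNAs of the RefSeq table, while no seed of the other 5 members with a sequence occurs in another mature microRNA there. The 5 better known of these, the miR-15/16 family, are shown for comparison with miR-424-5p, from which they differ mainly after the seed.
hsa-miR-15a-5p: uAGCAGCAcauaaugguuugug
hsa-miR-15b-5p: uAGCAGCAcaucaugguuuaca
hsa-miR-16-5p: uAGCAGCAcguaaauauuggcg
hsa-miR-195-5p: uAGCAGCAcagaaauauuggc
hsa-miR-497-5p: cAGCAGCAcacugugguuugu

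The hairpin from which both miR-424 arms are cut is shown whole, with the arms in capitals, because both of its arms were measured and are compared with each other. It is 98 bases long, and the 5p arm comes first.
MIR424: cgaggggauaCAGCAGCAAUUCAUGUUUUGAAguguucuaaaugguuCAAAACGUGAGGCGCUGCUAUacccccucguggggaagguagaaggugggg

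The 6 libraries held between 1618248 counts (control replicate 1) and 15245007 counts (RUNX1 replicate 1), so the precision was lowest in control replicate 1, where 3 counts correspond to 1.85 CPM (counts-per-million). The cluster took between 294 and 2203 counts per library. RUNX1 replicate 3 lay nearer to the controls than the other 2 RUNX1 samples. Across all small RNAs called altered, it stood at a median of 0.80 of the way from the control mean (0) to the mean of the other RUNX1 samples (1) on the log2 scale, against 1.14 and 1.11 for replicates 1 and 2. Of the blood cell markers, the erythroid miR-451a and the haematopoietic miR-142-5p were read in every library. miR-451a was at 1624 ± 283 CPM with RUNX1 and 2903 ± 232 in control cells, and miR-142-5p at 37694 ± 6229 against 11714 ± 783 CPM (SD, n = 3). The erythroid microRNAs did not all differ in one direction. miR-144-5p and miR-486-5p were also lower with RUNX1, but miR-144-3p was higher, at 242 ± 14.8 CPM against 120 ± 14.4 (SD, n = 3). The study also measured mature miR-144 by quantitative PCR, where it was lower with RUNX1, unlike in its sequencing. Of 8 microRNAs of other tissues, miR-124-3p and miR-206 had no count in any library and 5 had at most 29 counts in all, while miR-375 had 5929. miR-375 itself differed between the groups, at 70.02 ± 5.03 CPM in control cells and 185 ± 19.6 CPM in RUNX1 cells (SD, n = 3), was called up under each of the 5 scalings, and its part in the values of the cluster was not tested.

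RUNX1 over-expression went with higher levels of miR-542-3p and, with the main scaling of the libraries (TMM, edgeR's trimmed mean of M-values), of miR-424-5p, whose direction turned with scaling to library size. miR-424-3p, miR-503-5p and miR-450b-5p were not called. The rise was 3.02-fold for miR-542-3p and 1.53-fold for miR-424-5p. miR-542-5p was also called up, but its control counts alone would not have passed the filter on low counts, so its call depended on the group in which it was high and is given as a value only. A call required a P-value below 0.05 in edgeR's quasi-likelihood test together with a log2 fold change of 0.5 or more in either direction. Of the 7 members 6 had enough counts to be tested, and 3 of these 6 were called up and 0 down. Over all entries 28.0% of the 947 tested small RNAs were called up and 29.6% down, so calls were common in this comparison. Among small RNAs with at least 10 counts in every library, which leaves out miR-542-5p, 2 of 5 members were called up, against 29.5% of 654. The RUNX1 samples all lay on one side of the control samples for 3 of the 6 members, miR-542-5p among them, against 64.8% of all tested small RNAs. The median log2 fold change was 0.54 over the 6 tested members, -0.06 over all tested small RNAs and 0.11 over the 598 tested microRNAs. Since the 6 members include miR-542-5p, this count and the members' median are descriptions only.

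**Figure D1:**
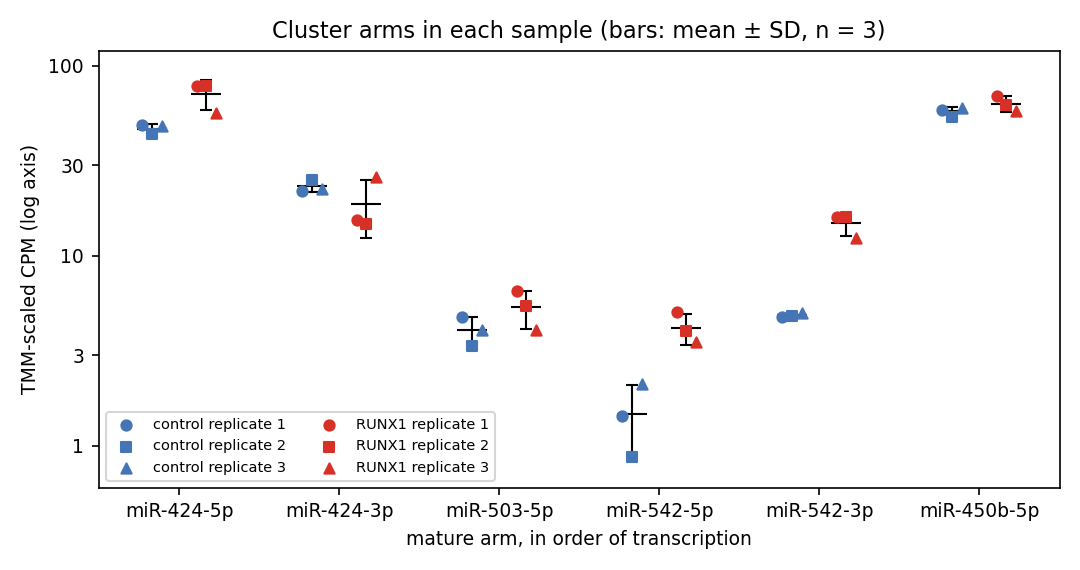
Each point is the TMM-scaled level in CPM (log axis) of one mature arm in one library, for the 6 members that could be tested, in order of transcription. Horizontal bars show the group mean and vertical bars the SD (n = 3). The 3 RUNX1 points lie above all control points for miR-424-5p, miR-542-5p and miR-542-3p, and RUNX1 replicate 3 is the only RUNX1 sample above the controls for miR-424-3p.

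miR-542-3p had the smallest P-value of the members. Its counts were 10, 39 and 38 in the control libraries and 184, 100 and 85 in the RUNX1 libraries. Scaled to library depth with TMM factors, these were 4.78, 4.84 and 5.0 CPM in control cells and 15.96, 15.999 and 12.4 CPM in RUNX1 cells. The control samples were thus close together, and each RUNX1 sample was above every control sample. The log2 fold change was 1.59 ± 0.20 (SE), with a Benjamini-Hochberg adjusted P-value of 0.000154 (edgeR).

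The opposite arm, miR-542-5p, was the scarcest of the tested members, with 3, 7 and 16 counts in the control libraries and 58, 25 and 24 in the RUNX1 libraries. Its levels were 1.43, 0.87 and 2.11 CPM in control cells and 5.03, 4.0 and 3.50 CPM in RUNX1 cells. No RUNX1 sample overlapped the controls, although the control value of replicate 1 rested on the floor of 3 counts. These are 1.43 CPM with TMM scaling and 1.85 CPM of the unscaled total. Since the RUNX1 libraries brought this arm past the filter, its log2 fold change of 1.52 ± 0.36 (SE) is a description and supports no test. It was 2.06 without control replicate 3, the library with most counts of this arm among the controls.

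miR-424-5p, one of the 2 most abundant members, had 102, 351 and 364 counts in the control libraries and 905, 490 and 386 in the RUNX1 libraries. This gave 48.8, 43.6 and 47.9 CPM in control cells against 78.5, 78.4 and 56.3 CPM in RUNX1 cells. All RUNX1 samples were above the controls, but replicate 3 was closer to the controls than to the other RUNX1 samples. The log2 fold change was 0.61 ± 0.16 (SE, adjusted P-value 0.0108, edgeR), and it was 0.84 without RUNX1 replicate 3. The call was lost when the libraries were scaled to microRNAs only or to library size, as described below.

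miR-424-3p, cut from the same hairpin, was measured at 22.0, 24.9 and 22.5 CPM in control cells and at 15.4, 14.7 and 25.98 CPM in RUNX1 cells. RUNX1 replicates 1 and 2 lay below all control samples and RUNX1 replicate 3 above all of them. The log2 fold change of -0.32 ± 0.23 (SE) was not called (adjusted P-value 0.265, edgeR). Without RUNX1 replicate 3 it was -0.54 and called down (P-value 0.00178, edgeR), so with TMM the call turned on this library. The call also depended on the scaling, as described below.

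miR-503-5p, the other member of the extended miR-15/16 family in the cluster, had few counts, with 10, 27 and 31 in the control libraries and 75, 34 and 28 in the RUNX1 libraries. Its levels of 4.78, 3.35 and 4.08 CPM in control cells and 6.51, 5.44 and 4.09 CPM in RUNX1 cells overlapped. The log2 fold change of 0.47 ± 0.27 (SE) was not called (adjusted P-value 0.159, edgeR). Without RUNX1 replicate 3 it was 0.74 and called up (P-value 0.00782, edgeR). An increase of this size could not be told from the spread between the 6 samples at this depth.

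miR-450b-5p had about as many counts as miR-424-5p, 2599 against 2598 over all libraries, but a small difference between the groups. Its levels were 58.8, 53.6 and 60.2 CPM in control cells and 69.7, 62.1 and 57.7 CPM in RUNX1 cells, and the groups overlapped. The log2 fold change was 0.14 ± 0.14 (SE, adjusted P-value 0.409, edgeR).

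miR-450a-5p could not be measured. It had 1 count in control replicate 2 and 0 in the other 5 libraries, and it did not pass the filter on low counts. Its sequence is encoded at 2 places, in MIR450A1 and MIR450A2, which lie next to the well measured MIR450B. Among the microRNA names matched to RefSeq, 15 of the 160 whose mature sequence occurs at 2 or more places passed the filter (9.38%), against 505 of the 2102 that occur at 1 place (24.02%), and the median total was 0 counts against 3. miR-92a-3p, which also occurs at 2 places, had 982584 counts. How reads that match several places were counted is not stated for these files, and its part in the low count of miR-450a-5p was not tested.

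The remaining arms of the cluster were rare. miR-503-3p had 17 counts over all libraries, miR-450a-1-3p had 7 and miR-450b-3p had 2, and none passed the filter. miR-450a-2-3p had 0 counts in all 3 control libraries and 1, 4 and 4 counts in the RUNX1 libraries, at or near the floor of 3 counts.

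**Figure D2:**
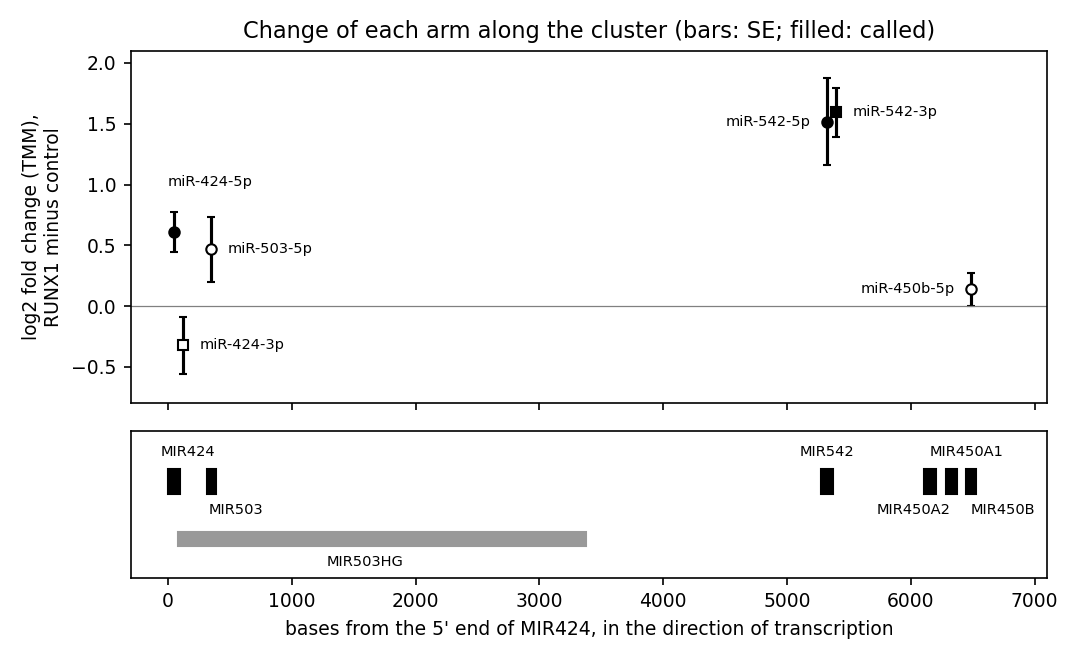
The upper panel shows the log2 fold change (RUNX1 minus control, TMM scaling) of each tested arm with its SE against the distance from the 5′ end of MIR424 in bases, and the lower panel shows the 6 hairpins (black) and MIR503HG (grey) to scale. Circles are 5p arms and squares 3p arms, the squares being drawn 70 bases to the right of their hairpin's centre so that both arms can be seen, and filled symbols were called. miR-542-3p, with a log2 fold change of 1.59, lies between arms of the neighbouring hairpins with smaller values, 0.47 for miR-503-5p and 0.14 for miR-450b-5p. The value of miR-542-5p, 1.52, is drawn filled but is a description only, since this arm passed the filter through the RUNX1 libraries.

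To set neighbouring arms against each other, their counts were compared as ratios within each library, which do not depend on how the libraries are scaled. Over 8 such ratios an exact two-sided permutation test was used, which cannot go below 0.1 with 3 samples against 3, so none could pass the threshold. The log2 ratio of miR-542-3p to miR-424-5p counts was -3.35, -3.17 and -3.26 in control cells and -2.30, -2.29 and -2.18 in RUNX1 cells. The difference was 1.002 on the log2 scale (2.003-fold in favour of miR-542-3p), with no overlap between the groups (exact permutation P-value 0.1, adjusted 0.267). The log2 ratio of miR-450b-5p to miR-424-5p counts was 0.27, 0.30 and 0.33 in control cells and -0.17, -0.34 and 0.03 in RUNX1 cells. The difference was -0.46, again without overlap (exact permutation P-value 0.1, adjusted 0.267). The order of these 2 abundant arms was therefore turned in RUNX1 replicates 1 and 2, where miR-424-5p had more counts than miR-450b-5p, and the arms were close to equal in RUNX1 replicate 3. The log2 ratio of miR-503-5p to miR-424-5p was -3.53 ± 0.18 in control cells and -3.74 ± 0.13 in RUNX1 cells (SD, n = 3, exact permutation P-value 0.2), a difference of -0.21 with overlapping groups.

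Both arms of the MIR424 hairpin printed above come from one precursor. The log2 ratio of miR-424-5p to miR-424-3p counts was 1.15, 0.80 and 1.09 in control cells, 2.35 and 2.41 in RUNX1 replicates 1 and 2, and 1.12 in RUNX1 replicate 3. Replicate 3 was therefore within the range of the controls while the other 2 were well above it, and the difference of 0.95 did not separate the groups (exact permutation P-value 0.2, adjusted 0.32). Without RUNX1 replicate 3 the difference was 1.37. The ratio of miR-542-3p to miR-542-5p was 1.82 ± 0.62 in control cells and 1.83 ± 0.17 in RUNX1 cells on the log2 scale (SD, n = 3), a difference of 0.009. This ratio is a description only, since miR-542-5p passed the filter through the RUNX1 libraries. With 3, 7 and 16 control counts of that arm, it cannot decide whether the balance of the arms changed. Among the 92 hairpins with at least 10 counts of both arms in every library, which miR-424 belongs to and miR-542 does not, 58 (63.0%) had a 5p to 3p ratio that did not overlap between the groups, so changed arm ratios were common in this comparison. In 35 of the 92 RUNX1 replicate 3 lay nearer to the controls than to the other RUNX1 samples, against 15 and 18 for replicates 1 and 2.

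The make-up of the cluster differed between the groups. In control cells miR-450b-5p took 41.7% ± 0.81 of the cluster's counts, miR-424-5p 33.9% ± 0.76, miR-424-3p 16.8% ± 1.87, miR-542-3p 3.54% ± 0.14, miR-503-5p 2.94% ± 0.43 and miR-542-5p 1.06% ± 0.41 (SD, n = 3). In RUNX1 cells miR-424-5p came first with 39.9% ± 4.22, followed by miR-450b-5p with 35.6% ± 1.12, miR-424-3p with 10.8% ± 4.71 and miR-542-3p with 8.32% ± 0.55. The shares of miR-424-5p and of both miR-542 arms were higher in every RUNX1 sample than in every control sample, and that of miR-450b-5p was lower. Groups without overlap were common, at 64.8% of all tested small RNAs by TMM-scaled CPM, a measure unlike these shares. The shares of a library are parts of a whole, so higher shares of some arms lower others. That of miR-542-5p is a description only. In control cells the shares of miR-542-3p and miR-503-5p were close, while in RUNX1 cells miR-542-3p was well above miR-503-5p with 2.99% ± 0.43.

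Whether the cluster as a whole rose depended on the scaling. With TMM factors the summed members were at 138 ± 5.76 CPM in control cells and 177 ± 15.8 CPM in RUNX1 cells (SD, n = 3), with every RUNX1 sample above the controls. Scaled to the total counts alone the order was the opposite, with 176 ± 5.15 CPM in control cells and 139 ± 5.90 in RUNX1 cells, again without overlap. miR-10a-5p, the small RNA with most counts in the RUNX1 libraries, moved with this difference and took 5.81% to 7.02% of all counts in control libraries and 24.5% to 29.3% in RUNX1 libraries. With its counts left out of the totals, the cluster was at 188 ± 4.85 CPM in control cells and 191 ± 9.94 in RUNX1 cells, and the groups overlapped. Per library, these were 193, 183 and 187 in control cells and 202, 188 and 183 in RUNX1 cells.

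The calls of single arms depended on the scaling too. Relative to TMM, scaling to library size moved the log2 fold change of all tested small RNAs by a median of -0.70, library size without miR-10a-5p by -0.33 and TMM on microRNAs only by -0.19. The split of calls over all entries was 265 up and 280 down with TMM, 213 and 345 with TMM on microRNAs only, 186 and 393 with library size without miR-10a-5p, and 120 and 521 with library size. miR-542-3p was called up under each of these, with log2 fold changes from 0.89 to 1.68, and the values of miR-542-5p ranged from 0.82 to 1.60. RLE factors are DESeq2's way of scaling. Of these scalings miR-424-5p was called with TMM and RLE factors, at 0.61 and 0.69, and stood at 0.41 with TMM on microRNAs only, 0.27 with library size without miR-10a-5p and -0.10 with library size. miR-450b-5p turned from 0.14 with TMM to -0.57 with library size, where it was called down (P-value 0.00205, edgeR). miR-503-5p went from 0.55 with RLE factors to -0.24 with library size and was not called under either. miR-424-3p was called down with library size at -0.999 and with library size without miR-10a-5p at -0.64.

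Of the 6 microRNAs with the seed of miR-424-5p 5 were tested, and 2 were called up and 0 down, beside 28.0% up over all tested small RNAs. This became 1 up and 0 down with TMM on microRNAs only and 0 up and 3 down with library size. miR-15a-5p was at 464, 480 and 483 CPM in control cells and 1192, 1073 and 756 CPM in RUNX1 cells, without overlap, and was called up with a log2 fold change of 1.08 ± 0.17 (SE, adjusted P-value 0.000604, edgeR). miR-497-5p was also called up, at 0.57 ± 0.21 (SE, adjusted P-value 0.0446, edgeR), although its samples overlapped and its direction turned with library size (-0.15). miR-15b-5p, with a log2 fold change of -0.04 ± 0.18, miR-16-5p, with -0.03 ± 0.27, and miR-195-5p, with -0.14 ± 0.25 (SE), were not called with TMM. miR-6838-5p had 12 counts in all and was not tested. Like miR-450a-5p, miR-16-5p is encoded at 2 places and had few counts, 305 over all libraries against 34132 for miR-15a-5p. The 2598 counts of miR-424-5p were likewise few beside those of miR-15a-5p, and the log2 ratio of miR-424-5p to miR-15a-5p was lower in every RUNX1 sample, at -3.35 ± 0.11 in control cells and -3.82 ± 0.10 in RUNX1 cells (SD, n = 3, exact permutation P-value 0.1, adjusted 0.267). Against miR-16-5p the log2 ratio was 2.84 ± 0.44 in control cells and 3.42 ± 0.32 in RUNX1 cells, with overlap (SD, n = 3, exact permutation P-value 0.3). Of the 5 tested 3p arms of this family 0 were called up and 2 were called down, beside 29.6% down over all tested small RNAs. These 2 were miR-15b-3p with a log2 fold change of -1.48 and miR-16-2-3p with -0.82, and both stayed below 0 under every scaling.

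Another microRNA cluster of chromosome X, which runs from miR-106a to miR-363-3p, lies 369906 bases beyond MIR450B on the same strand. Of its 10 listed arms 4 were tested, and 3 of these were called up with 0 down. Over all tested small RNAs 28.0% were called up and 29.6% down. Of the 3 called arms, miR-20b-5p had a log2 fold change of 1.48, above 0 under every scaling. miR-363-3p, with 1, 6 and 5 counts in the control libraries and 397, 222 and 160 in the RUNX1 libraries, and miR-18b-5p, with 5, 7 and 23 against 77, 39 and 27, would not have passed the filter on their control counts, so their calls depended on the group in which they were high. Its miR-106a-5p was at 0.42 ± 0.25 (SE) and was not called. The log2 ratio of miR-424-5p to miR-106a-5p was 3.23 ± 0.24 in control cells and 3.35 ± 0.50 in RUNX1 cells, with overlap (SD, n = 3, exact permutation P-value 0.8).

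Lists of lineage microRNAs are given beside these values. Of the 9 monocyte and granulocyte microRNAs 8 were tested, with 7 called up and 1, miR-223-5p, down (4 up and 1 down with library size), beside 28.0% up and 29.6% down over all tested small RNAs. The 8 include both arms of miR-142, miR-223 and miR-342, so they are not separate markers. miR-155-5p was called up on at most 27 counts per library. The list's summed level, most of it miR-142-5p, was 14708 to 16387 CPM in control cells and 38364 to 55553 CPM in RUNX1 cells. Since miR-142-5p also served above as a general haematopoietic marker, the sum is not a measure of monocytes or granulocytes alone. Of the 5 erythroid microRNAs 1, miR-144-3p, was called up and 3 down (0 and 3 with library size). Their summed level was 4478 to 5108 CPM in control cells and 2386 to 3785 CPM in RUNX1 cells. In bulk samples a change in the share of cells of one state and a change in the level per cell cannot be told apart, and the part of such a shift in the values of the cluster was not tested.

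The tested microRNAs outside the cluster whose pattern over the 6 samples was most like that of the summed members, by Euclidean distance of the centred log2 CPM, were let-7e-5p (0.11), miR-140-3p (0.16), miR-21-5p (0.16), miR-192-5p (0.16) and miR-186-5p (0.19). Their log2 fold changes ranged from 0.31 for miR-21-5p to 0.40 for miR-192-5p with TMM, and all 5 were below 0 with library size.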

How the data were processed

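Total RNA was extracted with Trizol, and small RNA libraries were made with the TruSeq Small RNA kit. Groups and replicate numbers come from the sample titles. RUNX1 replicates 1 and 2 share the number 2 in their library names, so their identity rests on the titles. The library names of control and RUNX1 samples carry different letters, and what the letters mark is not stated, so any difference in preparation cannot be told apart from the condition. The authors counted reads per annotated small RNA and deposited these raw counts, whole and unscaled. Per the submitters' notes CASAVA 1.8.2 and hg19 were used. The treatment of reads matching several places is not given in the sources used here.

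Counts were filtered with filterByExpr (minimum count 10, minimum total 15), scaled by TMM and tested with glmQLFTest in edgeR 4.0.16 (R 4.3.3) on all 947 small RNAs that passed, with condition as the only term. The thresholds (P-value under 0.05, log2 fold change of at least 0.5) are those of the study. Standard errors were derived from the fold change and its F statistic. Ratios were compared by exact two-sided permutation tests (SciPy 1.17.1), adjusted by Benjamini-Hochberg over the 8 ratios. Alternatives included DESeq2 1.42.0. The members and lists were chosen with earlier results of these data known. Named microRNAs are the members, the listed arms, those sharing a member's seed and the 5 nearest in pattern, and miR-10a-5p was added after its values were seen. Log2 CPM in descriptions uses a pseudocount of 0.5. The floor of 3 counts covers counting error only, whereas the SD and SE values include the spread between samples.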

Additional observations from a re-analysis of the deposited data

How the results depend on the processing

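The number of members called up lay between 2 and 4 under all alternatives, with 3 under DESeq2, RLE factors and the adjusted P-value. These counts include miR-542-5p, whose call depended on the group in which it was high, wherever it could be tested. The number was 2, miR-542-3p and miR-542-5p, with library size, with library size without miR-10a-5p and with TMM on microRNAs only. The same 2 were called with a log2 fold change of at least 1. With at least 10 counts in every sample, which leaves out miR-542-5p, the 2 were miR-424-5p and miR-542-3p. Leaving out 1 library gave 3 to 4 called up and 0 to 1 called down, the 1 being miR-424-3p without RUNX1 replicate 3. The number called down was 2 with library size (miR-424-3p and miR-450b-5p) and 1 with library size without miR-10a-5p, an alternative chosen after seeing the data. The direction turned with library size for miR-424-5p (-0.10), miR-503-5p (-0.24) and miR-450b-5p (-0.57). That of miR-450b-5p also turned with TMM on microRNAs only (-0.05) and with library size without miR-10a-5p (-0.20). miR-542-3p was called under all 14 alternatives (0.89 to 1.79) and the values of miR-542-5p ranged from 0.82 to 2.06 over the 13 that could test it. The sign of the ratio of the miR-542 arms and of miR-424-5p to miR-106a-5p turned in some leave-one-out values (-0.28 to 0.34 and -0.15 to 0.34). The ratio with miR-450a-5p could not be computed, since 5 libraries had no count.

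Same-numbered samples did not deviate together (correlations -0.03, -0.08 and 0.02). With 3 samples per group this cannot decide whether they were prepared in pairs. With the replicate block 3 members were called up and 0 down, and miR-424-5p was at 0.59. For the ratios the block leaves the differences as they were, with a smallest possible P-value of 0.25.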
